A study of Rattus norvegicus with 12 samples.

Results

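Milk protein genes were examined in the mammary glands of prepubertal Sprague-Dawley rats at PND21, that is, postnatal day 21. The 7 genes were taken as a list of names: the casein genes Csn1s1, Csn2, Csn1s2a, Csn1s2b and Csn3, the whey acidic protein gene Wap and the alpha-lactalbumin gene Lalba. All 7 were found among the 16511 genes of the count table. RNA had been sequenced from 12 snap-frozen whole glands, each from a different litter, 6 from offspring of dams on a high fat butter (HFB) diet and 6 from offspring of dams on a control (CTL) AIN diet. The glands therefore differed by the diet of the dam, and no other agent is named in their labels. The sources differ on when the exposure ended, so the exposure window of these glands was not settled. They also differ on the tissue. The paper describes RNA from microdissected epithelium, for the high butterfat diet with and without bisphenol A, which is not the contrast of these samples. The samples were taken as whole glands here. Every library held at least 4442 counts of the adipocyte gene Adipoq and 205 counts of the skeletal muscle gene Acta1. Libraries are named by diet and library number, HFB 1 to HFB 6, CTL 7 to CTL 11 and CTL 14. All HFB numbers come before all CTL numbers and the labels name no batch. A difference that goes with library order therefore cannot be told apart from one of diet. Total counts lay between 2320267 and 2944680 per library. Values are given as CPM, counts scaled to a common library total after TMM, a method that evens out differences in library composition. HFB 6 and CTL 14 stood apart from the other libraries by high lymphoid and low adipocyte marker levels, given beside the other cell markers. The fold changes of the milk protein and prolactin pathway genes, the relations and the scores were also computed without them.

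Caseins are the main proteins of milk. The products of Csn1s1, Csn2, Csn1s2a and Csn1s2b are the calcium-sensitive caseins, which bind calcium phosphate, and the product of Csn3, kappa-casein, covers the surface of the casein micelle and keeps it in solution. Wap and Lalba encode whey proteins of rodent milk, and alpha-lactalbumin is also the regulatory subunit of lactose synthase. These genes are known for their strong activity in the luminal secretory cells of the lactating gland, where prolactin acts through Jak2 and Stat5 together with glucocorticoids. The glands studied here came from immature animals that were not lactating.

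In the gene table of the RefSeq GRCr8 assembly, which is a later build than the rn4 build named for the files, Csn1s1 (Entrez 24284), Csn2 (29173), Csn1s2a (114595), Csn1s2b (286759), Csn3 (29188) and Wap (114596) lie on chromosome 14 and Lalba (24528) on chromosome 7. The 5 caseins lie in 1 cluster, with 6 further genes between the outer caseins. Promoter windows of 300 bases, from 250 before to 50 after the start of each gene, were matched for all 7 genes by symbol. They were searched for TTCNNNGAA, the general form of a Stat5 binding motif, which reads the same on both strands. The motif was found 1 time in each of the windows of the 4 calcium-sensitive caseins, beginning at position -100 from the start in Csn1s1 and Csn1s2b, -97 in Csn2 and -102 in Csn1s2a. It was held by 8.87% of the 33469 windows in the table. On reading these 4 windows, the letters AATTANCAT were noticed in each of them, beginning at positions from -60 to -56, and were then searched for on both strands as well. Of all windows, 0.968% held these letters and 0.134% held both motifs, which do not overlap in the 4 caseins. Neither was found in the windows of Csn3, Wap and Lalba, which says only that these letters are not in those windows. The stretches of 100 bases are shown because they place both motifs, in capitals, at nearly the same spacing in genes with very different counts (RefSeq GRCr8, 5′ to 3′ on the strand of the gene).
Csn1s1 (chr14:20638870-20638969, minus strand): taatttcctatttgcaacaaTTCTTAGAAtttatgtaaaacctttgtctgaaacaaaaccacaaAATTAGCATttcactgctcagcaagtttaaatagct
Csn2 (chr14:20601707-20601806, plus strand): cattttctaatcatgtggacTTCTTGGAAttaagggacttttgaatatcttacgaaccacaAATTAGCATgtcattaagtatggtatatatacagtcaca
Csn1s2a (chr14:20574494-20574593, minus strand): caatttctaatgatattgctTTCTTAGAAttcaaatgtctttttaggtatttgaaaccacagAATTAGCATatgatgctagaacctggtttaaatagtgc
Csn1s2b (chr14:20545639-20545738, minus strand): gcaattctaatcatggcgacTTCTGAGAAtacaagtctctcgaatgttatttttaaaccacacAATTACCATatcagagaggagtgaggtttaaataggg

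Of the 7 genes, 5 had counts and 2, Csn2 and Csn1s2a, were listed at 0 in all 12 libraries. Csn1s1, Csn3 and Lalba passed the filter on low counts, whereas Csn1s2b and Wap did not. A count of 0 allows up to 3 counts, or 0.944 to 1.30 CPM in a single library and 0.0959 CPM over the 12 libraries together, and this limit covers counting error only. Beta-casein, the product of Csn2, is a major casein of rodent milk, and its gene lies next to Csn1s1 in the cluster. Of the 16511 genes in the table, 17.9% were listed at 0 in all libraries, and none of 12 widely used reference genes was among them. How reads were assigned to genes is not given in the sources used here, so a lack of transcripts and a loss of reads in counting cannot be told apart for Csn2 and Csn1s2a. Csn1s2a and Csn1s2b are related copies, and reads that match both could have been lost or moved between them.

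**Figure D1:**
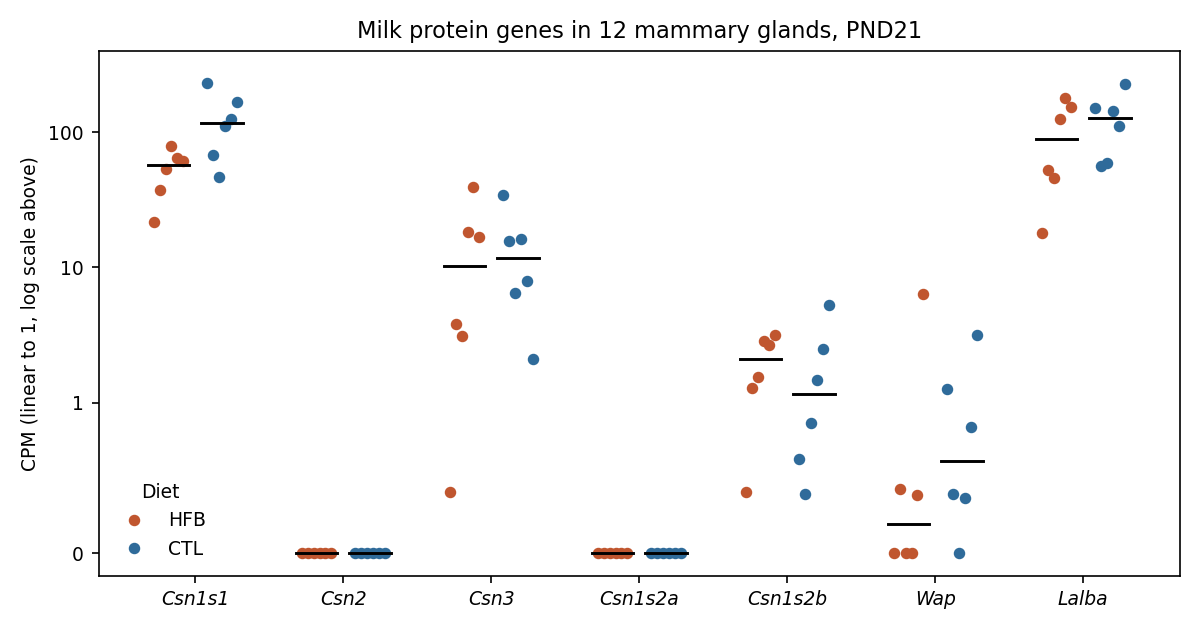
CPM of the 7 milk protein genes in each library, on an axis that is linear up to 1 and logarithmic above, with HFB libraries in orange, CTL libraries in blue and a black line at the median of each diet. All HFB libraries lie under the CTL median for Csn1s1, the diets overlap in every gene with counts, and Csn2 and Csn1s2a are at 0 throughout.

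Csn1s1, which encodes alpha-S1-casein, had lower values in the HFB glands, a difference that did not pass correction for the number of genes tested. In the HFB libraries it ran from 21.7 CPM in HFB 1 through a median of 57.5 to 79.1 CPM in HFB 4, from 53 to 222 counts. In the CTL libraries it ran from 46.7 CPM in CTL 9 through a median of 118 to 233 CPM in CTL 7, from 108 to 740 counts. All 6 HFB libraries were under the CTL median and 4 of the 6 CTL libraries were above the highest HFB library, but the diets overlapped. The means were 52.9 ± 20.5 CPM (SD, n = 6) with HFB and 125 ± 67.8 CPM (SD, n = 6) with CTL. The log2 fold change of HFB over CTL, negative where HFB is lower, was -1.24 (SE 0.38, 95% interval -2.06 to -0.42). Its unadjusted p was 0.00593 in edgeR's quasi-likelihood test, and the p adjusted by Benjamini-Hochberg over all 9382 genes tested was 0.999. Without HFB 6 and CTL 14 the log2 fold change was -1.19 (unadjusted p = 0.0115 in edgeR).

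Lalba, the alpha-lactalbumin gene, was detected in every library and varied widely within each diet. Its values in the HFB libraries ran from 18.0 CPM in HFB 1 through a median of 88.6 to 178 CPM in HFB 5. In the CTL libraries they ran from 55.8 CPM in CTL 8 through a median of 127 to 229 CPM in CTL 14. The lowest 3 libraries were of the HFB diet, yet HFB 5 and HFB 6 lay above the CTL median. The log2 fold change was -0.38 (SE 0.50, 95% interval -1.46 to 0.69), with an adjusted p of 0.999 in edgeR, and it was -0.31 without HFB 6 and CTL 14. With limma voom it was -0.88 (unadjusted p = 0.0594, adjusted p = 0.778, with adjusted p from 0.778 to 1 over 21 alternatives), and leaving out a library gave -0.66 without HFB 5 to -0.11 without CTL 14. The means were 95.6 ± 65.5 CPM (SD, n = 6) with HFB and 125 ± 64.9 CPM (SD, n = 6) with CTL.

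Csn3, the kappa-casein gene, had between 1 and 110 counts per library. With HFB it ran from 0.409 CPM in HFB 1, a single count, through a median of 10.3 to 39.6 CPM in HFB 5. With CTL it ran from 2.10 CPM in CTL 14, from 6 counts, through a median of 11.8 to 34.6 CPM in CTL 7. The ranges of the diets were nearly the same, with 13.6 ± 14.8 CPM (SD, n = 6) for HFB and 13.9 ± 11.6 CPM (SD, n = 6) for CTL. The log2 fold change was -0.03 (SE 0.78, 95% interval -1.70 to 1.65, adjusted p = 0.999 in edgeR), an interval that leaves room for more than a doubling in either direction. The sign of this small value changed when a library was left out, from -0.71 without HFB 5 to 0.50 without CTL 7, and it was -0.32 without HFB 6 and CTL 14. With limma voom it was -1.76 (unadjusted p = 0.0484, adjusted p = 0.762, with adjusted p from 0.762 to 1 over 20 alternatives).

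Csn1s2b and Wap were near the detection limit, so their differences rest on few reads. Csn1s2b, an alpha-S2-like casein gene, had 1 to 8 counts with HFB and 1 to 15 with CTL, and 8 of the 12 libraries had at least 3 counts. In a fit without the filter its log2 fold change was 0.10 (SE 0.61, 95% interval -1.21 to 1.42, adjusted p = 0.999 in edgeR), and 0.60 without HFB 6 and CTL 14. Leaving out 1 library gave from -0.10 without CTL 8 to 0.78 without CTL 14, with the sign reversed in 5 of 12 such fits. Wap, the gene of whey acidic protein, had 35 counts in all, of which HFB 6 gave 16, CTL 14 gave 9 and CTL 7 gave 4. Every other library had at most 2, and 3 of the 12 libraries had at least 3. Its log2 fold change was 0.20 (SE 1.08, 95% interval -2.12 to 2.52, adjusted p = 0.999 in edgeR). Without HFB 6 and CTL 14 it was -1.65, and without HFB 6 alone -2.40 (unadjusted p = 0.0305, adjusted p = 0.972 in edgeR, with adjusted p from 0.773 to 1 over 19 alternatives).

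Across the whole table the same test called 0 of 9382 genes at an adjusted p under 0.05, a background of 0%, and 0 of the 3 milk protein genes in it. DESeq2 and limma voom with quality weights also called 0 genes. At an unadjusted p under 0.05 edgeR called 220 genes, or 2.34%, DESeq2 called 271 and limma voom 613, and of the milk protein genes in the edgeR test only Csn1s1 was among them. The diets did not overlap in CPM for 0.107% of the genes tested, and for none of the milk protein genes. The genes were listed with earlier results of these data known, and 4 of the 7 were not in the test.

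**Figure D2:**
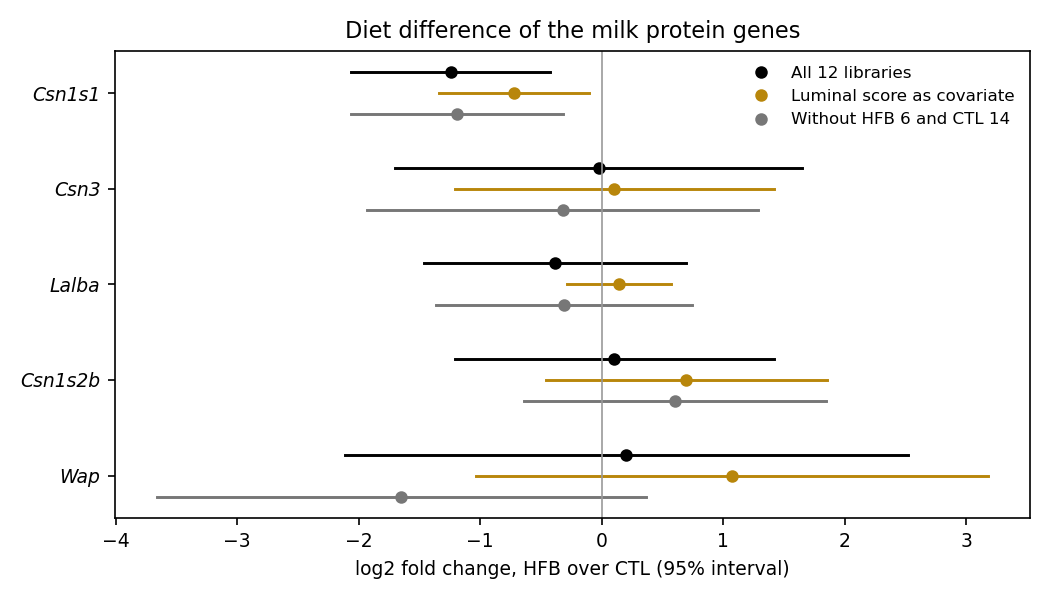
The log2 fold change of HFB over CTL for the 5 milk protein genes with counts, as points with 95% intervals, with all libraries in black, with the luminal score as a covariate in yellow and without HFB 6 and CTL 14 in grey. The intervals of Csn1s1 lie under 0 in each of these fits, at -1.24, -0.72 and -1.19, before any correction for the number of genes, and those of the other genes include 0.

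The make-up of the milk protein reads also varied between libraries. The 7 genes together took between 99 counts in HFB 1 and 1337 in CTL 7, and their summed CPM was 165 ± 97.9 (SD, n = 6) with HFB and 267 ± 129 (SD, n = 6) with CTL. Shares of these reads depend on the length of each transcript, and no transcript lengths were used here, so they do not rank the genes by level. Csn1s1 took from 22.5% of these reads in HFB 5 (95% Wilson interval 19.7% to 25.7%) to 55.3% in CTL 7 (52.7% to 58.0%), where the intervals cover counting error only and not the variation among glands. Lalba took from 36.0% in CTL 7 (33.4% to 38.6%) to 63.8% in HFB 6 (59.9% to 67.5%). Csn3 took from 0.517% in CTL 14 (0.237% to 1.12%) to 13.9% in HFB 5 (11.6% to 16.6%). The mean share of Csn1s1 was 37.9 ± 12.9% (SD, n = 6) with HFB and 46.2 ± 6.18% (SD, n = 6) with CTL, a description without a test. The number of Csn1s1 reads per Lalba read, a summary chosen after the counts had been seen, had a median of 0.673 with HFB and 0.958 with CTL. The difference of the mean log2 ratios, HFB minus CTL, was -0.56 (p = 0.132 by exact permutation, two-sided), so a larger diet difference for Csn1s1 than for Lalba was not shown.

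**Figure D3:**
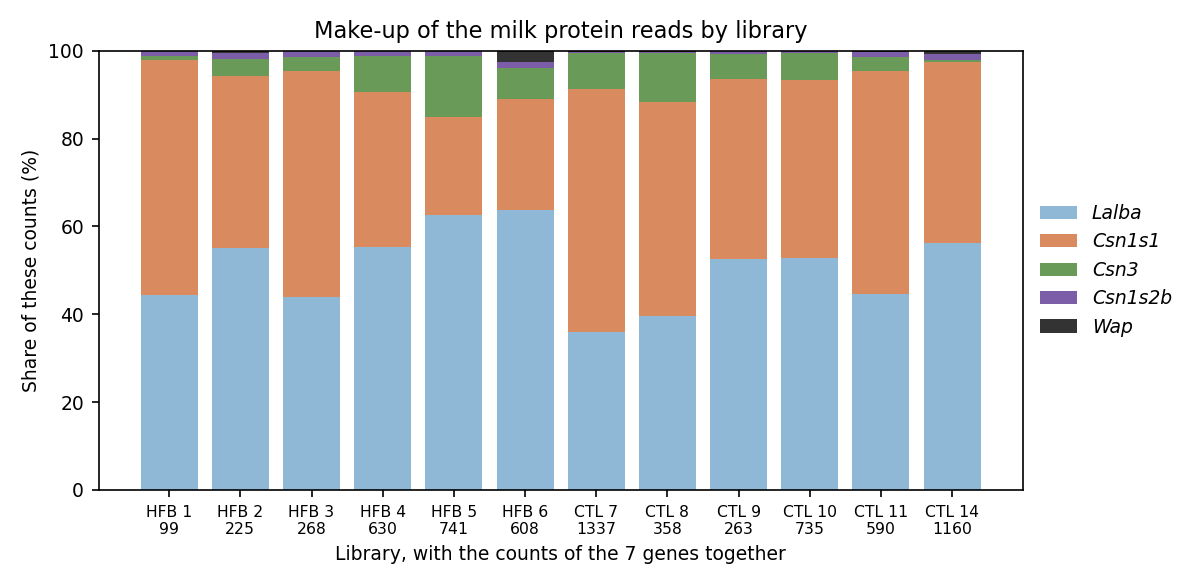
Share of each gene in the counts of the 7 milk protein genes, in percent, as stacked bars by library, with these counts under each library name. Csn1s1 and Lalba make up most of the reads in every library, Csn3 reaches 13.9% in HFB 5, and Wap is visible mainly in HFB 6.

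The cell make-up of whole glands was read from marker genes before the milk protein genes were compared with it. The luminal score, the mean log2 CPM of 10 markers of luminal and simple epithelium that had counts, ran from 2.96 in HFB 1 to 5.27 in CTL 14. Of 11 luminal markers in the table, Cldn3 was listed at 0 in all libraries, and Krt7 was not among the genes of the table. The most abundant by mean CPM were Krt8, Krt18 and Krt19, in that order. The summed luminal CPM ran from 125 in HFB 1 to 675 in CTL 14, with medians of 298 for HFB and 462 for CTL. Of 9 luminal genes tested, all had a log2 fold change under 0, with a median of -0.34 against 0.00 for all genes. None had an unadjusted p under 0.05, against 2.34% of all genes tested, so with 9 genes this count does not set them apart. The luminal score was 4.18 ± 0.96 (SD, n = 6) with HFB and 4.77 ± 0.54 (SD, n = 6) with CTL, a difference within the spread of the glands (p = 0.210 by exact permutation, two-sided, 0.748 after adjustment over 6 scores). Glands with fewer luminal cells and glands with less RNA of these genes per cell cannot be told apart in whole tissue. The part of luminal cells in the milk protein values was not tested beyond the relations and the fit that follow.

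Lalba followed the luminal score closely across the 12 libraries. Pearson's r was 0.96 (permutation p = 1e-05, the smallest that 100000 resamples can give, and 0.00021 after adjustment over 21 relations) and Spearman's rho was 0.93 (p = 2e-05 and 0.00042 after adjustment). Without HFB 1 and HFB 2, the libraries farthest from the median score, r was 0.94. Csn1s1 also followed it, with r = 0.83 (permutation p = 0.0005 and 0.00525 after adjustment), rho = 0.81 (p = 0.00207 and 0.0217 after adjustment), and r = 0.66 without HFB 1 and HFB 2. Without HFB 1 alone r was 0.74 and did not pass the adjusted threshold. For Csn3 r was 0.70 (permutation p = 0.0123 and 0.0522 after adjustment) and rho 0.52 (p = 0.0885 and 0.265 after adjustment), and r was 0.43 without HFB 1 and HFB 2. CTL 14, which had the highest luminal score and only 6 Csn3 counts, stood apart in this relation. The relations without HFB 6 and CTL 14 were added after the data had been examined. Leaving out the library that stood apart raises r for Csn3, so the p-values of Csn3 without it are not independent support. Without CTL 14 alone r was 0.91, and over the 10 libraries other than HFB 6 and CTL 14 it was again 0.91 (permutation p = 0.00032 and 0.00336 after adjustment) and rho was 0.90 (p = 0.00098), whereas Csn1s1 and Lalba gave r of 0.84 (p = 0.00139, rho = 0.81, p = 0.00748) and 0.95 (p = 4e-05, rho = 0.94, p = 0.00024). Within a diet, a comparison added after the values were seen, r with the luminal score was 0.97 in HFB and 0.91 in CTL for Lalba (exact permutation p = 0.00417 and 0.0139) and 0.87 and 0.93 for Csn1s1 (p = 0.00833 and 0.00694, exact). For Csn3 it was 0.98 in HFB and -0.04 in CTL (exact permutation p = 0.00556 and 0.938). None of the 42 relations within a diet passed adjustment over them, and in 10 of the 21 the diets had opposite signs.

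**Figure D4:**
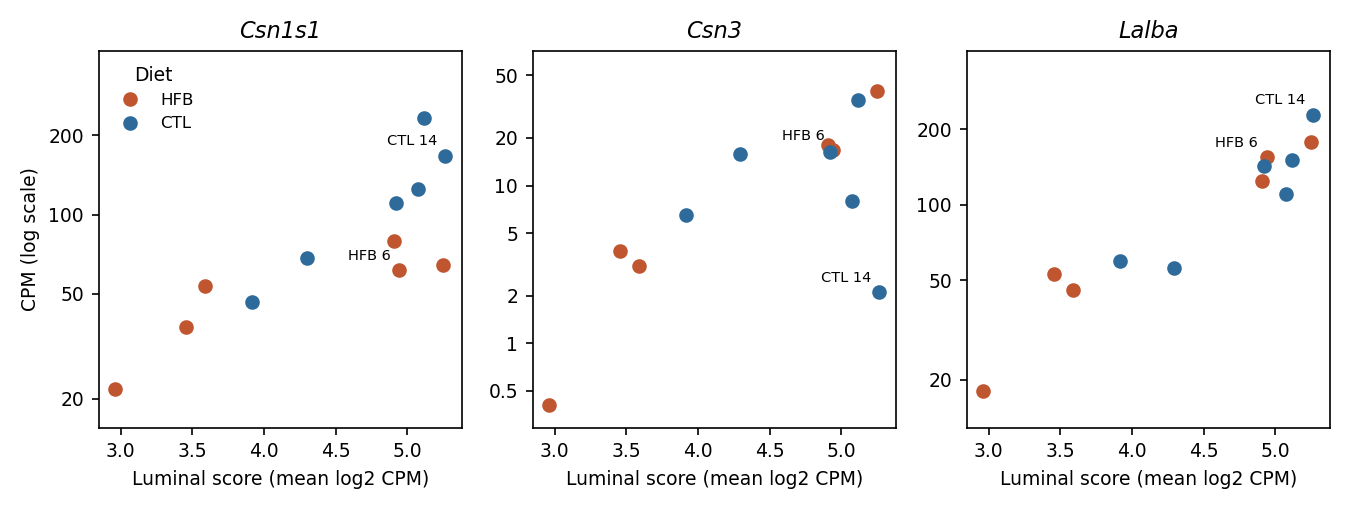
CPM of Csn1s1, Csn3 and Lalba on a log axis against the luminal score of each library, with HFB libraries in orange and CTL libraries in blue. Lalba rises with the score over all libraries, and CTL 14 has 2.10 CPM of Csn3 at the highest score, 5.27.

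With the luminal score as a covariate the diet difference of Csn1s1 was smaller, and that of Lalba changed sign. The log2 fold change of Csn1s1 was -0.72 (SE 0.28, 95% interval -1.34 to -0.11), with an unadjusted p of 0.0251 and an adjusted p of 0.682 in edgeR, against a background of 6.94% of genes at an unadjusted p under 0.05 in that fit. Over its 21 alternatives the adjusted p of Csn1s1 lay between 0.682 and 1. For Lalba it was 0.14 (SE 0.20, 95% interval -0.28 to 0.57), and for Csn3 0.10 (SE 0.60). In the fit without the filter, Csn1s2b was at 0.70 (SE 0.54) and Wap at 1.07 (SE 0.98).

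Of the 3 milk protein genes with enough counts to be compared, Csn1s1 and Lalba varied together, and both relations of Csn3 missed the adjusted threshold over the 12 libraries. Csn1s1 and Lalba gave r = 0.79 (permutation p = 0.00184 and 0.0129 after adjustment) and rho = 0.66 (p = 0.0216 and 0.114 after adjustment), and r was 0.70 without HFB 1 and CTL 7. Csn3 and Lalba gave r = 0.64 (permutation p = 0.0233 and 0.0742 after adjustment) and rho = 0.56 (p = 0.0624 and 0.222 after adjustment), and r was 0.83 without CTL 14 and HFB 1. Csn1s1 and Csn3 gave r = 0.50 (permutation p = 0.0976 and 0.208 after adjustment) and rho = 0.43 (p = 0.167 and 0.351 after adjustment), and this relation rested on the extremes, since r was -0.06 without HFB 1 and CTL 7. Without HFB 1 alone r for Csn1s1 and Lalba was 0.67 and no longer passed the adjusted threshold. Without HFB 6 and CTL 14 the 3 values of r, in the order given, were 0.81, 0.92 and 0.76 (permutation p = 0.00468, 0.00049 and 0.0108). Within the HFB glands r was 0.89, 0.99 and 0.88 (exact permutation p = 0.0167, 0.00278 and 0.0208), and within the CTL glands 0.86, -0.22 and 0.18 (exact permutation p = 0.0347, 0.689 and 0.738), where the difference between the diets was not tested.

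The basal score, from 5 markers of basal and myoepithelial cells led by Oxtr, Krt17 and Krt14, gave r of 0.69 with Csn1s1 (permutation p = 0.0124 and 0.0522 after adjustment, with rho of 0.78, p = 0.00399 and 0.0279 after adjustment), 0.62 with Csn3 (permutation p = 0.031 and 0.0814 after adjustment, with rho of 0.56 and p = 0.0633) and 0.65 with Lalba (permutation p = 0.0247 and 0.0742 after adjustment, with rho of 0.43 and p = 0.159). Without CTL 9 and HFB 1 these r were 0.45, 0.40 and 0.15, so the relation to Lalba rested on those libraries. Within the HFB glands r with the basal score was 0.93, 0.84 and 0.86 (exact permutation p = 0.00972, 0.0125 and 0.0208), and within the CTL glands 0.60, 0.30 and 0.31 (exact permutation p = 0.215, 0.539 and 0.611). The basal markers did not move as 1 set, since Oxtr was at 0.797 CPM in HFB 6 and 2.10 CPM in CTL 14 and at least 12.7 CPM elsewhere, whereas Krt14 and Krt17 were there at or above the highest of the other libraries. Krt5, a defining basal marker, was not among the genes of the table. The skeletal muscle score, led by Acta1, Myl11 and Myl1, gave r of 0.06, 0.19 and 0.20 with Csn1s1, Csn3 and Lalba (permutation p = 0.85, 0.549 and 0.541, rho = -0.01, 0.23 and 0.18, p = 0.991, 0.473 and 0.574), and -0.13, 0.05 and 0.03 without HFB 1 and CTL 10. Within the HFB glands these were 0.78, 0.60 and 0.66 (exact permutation p = 0.0681, 0.215 and 0.165), and within the CTL glands -0.24, -0.35 and -0.38 (exact permutation p = 0.675, 0.519 and 0.463), so the values over all glands combine opposite signs. The skin score, led by Sbsn, Krt10 and Krt1, gave 0.05, 0.34 and 0.02 (permutation p = 0.878, 0.286 and 0.942, rho = -0.02, 0.20 and -0.03, p = 0.956, 0.546 and 0.921), and -0.17, 0.24 and 0.05 without HFB 2 and CTL 8. Within the HFB glands the skin values were 0.64, 0.44 and 0.44 (exact permutation p = 0.168, 0.375 and 0.403), and within the CTL glands -0.79, 0.15 and -0.81 (exact permutation p = 0.0597, 0.785 and 0.0514). Of the skin markers, Loricrin, Flg and Krtdap were not among the genes of the table. Adjusted p was at least 0.5 for these 6 relations.

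HFB 6 and CTL 14 stood apart in the lymphoid and adipocyte markers. Their lymphoid scores were 6.70 and 6.77, against at most 4.57 elsewhere, and their adipocyte scores were 9.75 and 9.64, against at least 11.03. The summed CPM of 7 lymphoid markers, led by Cd79b, Cd3g and Cd3d, was 898 in HFB 6 and 870 in CTL 14 and ran from 2.52 in CTL 11 to 186 in HFB 1 elsewhere, and Cd79a was not among the genes of the table. The summed CPM of 7 adipocyte markers, led by Fabp4, Adipoq and Pnpla2, was 18820 and 15140 in these libraries and at least 29130 elsewhere. Their luminal scores were 4.94, near the middle of the 12 libraries, and 5.27, the highest, and they had the highest Wap and Csn1s2b values, 6.38 and 3.15 CPM of Wap and 3.19 and 5.25 CPM of Csn1s2b. The part of the lymphoid and adipocyte make-up in these values was not tested. Over all 12 libraries the lymphoid score gave r of -0.14, -0.44 and 0.070 with Csn1s1, Csn3 and Lalba (permutation p = 0.67, 0.15 and 0.832, rho = -0.26, -0.38 and 0.21, p = 0.418, 0.224 and 0.51). The adipocyte score gave -0.26, 0.14 and -0.47 there (permutation p = 0.413, 0.653 and 0.099, rho = -0.27, 0.098 and -0.45, p = 0.406, 0.764 and 0.145), and none of these 6 passed the threshold. Within the HFB glands the lymphoid values were -0.445, -0.271 and -0.165 (exact permutation p = 0.401, 0.597 and 0.782), and within the CTL glands 0.271, -0.691 and 0.602 (exact permutation p = 0.601, 0.151 and 0.219). The adipocyte values were -0.152, -0.253 and -0.367 within HFB (exact permutation p = 0.843, 0.718 and 0.494) and -0.477, 0.691 and -0.716 within CTL (exact permutation p = 0.35, 0.203 and 0.0139), with 1 of the libraries that lie apart in each diet. The relations over 12 libraries depend on the libraries that lie apart, which are also the farthest from the median of both scores. Over the other 10, the lymphoid score gave r of -0.65, -0.65 and -0.66 with Csn1s1, Csn3 and Lalba (permutation p = 0.0424, 0.0422 and 0.037, adjusted p = 0.0741 each, rho = -0.61, -0.38 and -0.30, p = 0.0675, 0.28 and 0.408), which turns the sign for Lalba and does not pass adjustment. The adipocyte score gave r of -0.10, 0.010 and 0.013 (permutation p = 0.784, 0.977 and 0.971, rho = -0.14, -0.04 and -0.08, p = 0.704, 0.917 and 0.838).

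None of the other 5 scores had a diet difference larger than the variation among glands. The difference of HFB minus CTL was -0.25 for the basal, -0.01 for the adipocyte, 0.68 for the lymphoid, 0.51 for the skeletal muscle and -0.25 for the skin score (p = 0.468, 0.933, 0.621, 0.623 and 0.374 by exact permutation, two-sided, 0.748 to 0.933 after adjustment). Without HFB 6 and CTL 14 the differences were -0.63 for the luminal, -0.26 for the basal, -0.033 for the adipocyte, 0.83 for the lymphoid, 0.10 for the skeletal muscle and -0.36 for the skin score. All 8 skeletal muscle genes tested had a log2 fold change above 0, with a median of 0.42 against 0.00 for all genes, and all 4 basal genes tested had one under 0, with a median of -0.26. For adipocyte genes it was above 0 for 4 of 7 with a median of 0.04, for both lymphoid genes tested above 0 with a median of 0.32, and for both skin genes tested under 0 with a median of -0.68. None of these genes had an unadjusted p under 0.05, against 2.34% of all genes tested, so with so few genes this count does not set them apart.

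Among 16 genes of the prolactin and Stat5 pathway and its partners in milk gene control, 12 were tested, 10 had a log2 fold change under 0, and the median was -0.15 against 0.00 for all genes. At an unadjusted p under 0.05 there was 1 higher and 1 lower gene, against 2.34% of all genes tested, and none passed the adjusted threshold. Gata3, a transcription factor of the luminal lineage, was at 3.72 ± 1.86 CPM (SD, n = 6) with HFB and 7.03 ± 2.61 CPM (SD, n = 6) with CTL (log2 fold change -0.91, SE 0.36, unadjusted p = 0.0253, adjusted p = 0.999 in edgeR). Gata3 had only 4 to 32 counts per library, and without HFB 6 and CTL 14 it was at -0.84 (unadjusted p = 0.0527 in edgeR). The part of luminal cells in this difference was not tested. Cebpb, a transcription factor that acts on casein promoters, was at 119 ± 43.5 CPM (SD, n = 6) with HFB and 81.5 ± 21.7 CPM (SD, n = 6) with CTL (log2 fold change 0.55, SE 0.24, unadjusted p = 0.0419, adjusted p = 0.999 in edgeR).

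The receptor of prolactin itself had few reads. Prlr had between 2 and 13 counts per library, 1.70 ± 1.14 CPM (SD, n = 6) with HFB and 3.36 ± 1.24 CPM (SD, n = 6) with CTL, and did not pass the filter. In the fit without the filter, read for these genes after their values were seen, its log2 fold change was -0.96 (SE 0.45, 95% interval -1.92 to 0.0048, unadjusted p = 0.051, adjusted p = 0.999 in edgeR), and -1.25 without HFB 6 and CTL 14 (unadjusted p = 0.019, adjusted p = 0.857 in edgeR). Among the other receptors, the log2 fold change was -0.11 for the growth hormone receptor gene Ghr, -0.33 for the insulin receptor gene Insr and -0.11 for the glucocorticoid receptor gene Nr3c1, and the progesterone receptor gene Pgr had at most 3 counts. Ghr was at 72.2 CPM in HFB 6 and 97.7 CPM in CTL 14 and at least 312 CPM elsewhere, Nr3c1 at 82.1 and 90.4 CPM and at least 142 CPM elsewhere, and Insr at 1.59 and 2.45 CPM and at least 3.85 CPM elsewhere. Without these libraries the log2 fold changes of Ghr, Insr and Nr3c1 were -0.098, -0.31 and -0.11. The kinase gene Jak2 was at -0.19. Stat5a, which carries the prolactin signal to milk protein genes, was even across glands at 77.9 ± 7.45 CPM (SD, n = 6) with HFB and 77.3 ± 6.43 CPM (SD, n = 6) with CTL (log2 fold change 0.01, SE 0.11), and Stat5b was at -0.11. These are values of whole glands, so they do not give the level of Stat5a in luminal cells. The transcription factor genes Elf5 and Nfib were at -0.34 and -0.55. Of the feedback inhibitors that Stat5 induces, Cish was at -0.07 and Socs2 at -0.65, and Socs1 and Socs3 had 1 to 15 and 1 to 11 counts per library, did not pass the filter, and were at 0.57 and -0.13 in the fit without it.

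Of 20 other genes of milk secretion, 10 were tested and 7 had a log2 fold change under 0, with a median of -0.03 against 0.00 for all genes. None had an unadjusted p under 0.05, against 2.34% of all genes tested, so with 10 genes this count does not set them apart. The rest did not pass the filter and are not in this median. Among them Btn1a1, with 0 to 29 counts per library, was at 1.588 ± 1.335 CPM (SD, n = 6) with HFB and 5.926 ± 3.661 CPM (SD, n = 6) with CTL. Muc15, with 0 to 12 counts, had means of 0.579 and 2.07 CPM. The mean was higher with HFB for Muc1, Pigr, Atp2b2 and Glycam1. These differences were not tested. Cd36, a fatty acid transporter that adipocytes also express, was at 968 ± 413 CPM (SD, n = 6) with HFB and 1211 ± 346 CPM (SD, n = 6) with CTL. Mfge8, a protein of the milk fat globule, was at 1471 CPM in HFB 6 and 1077 CPM in CTL 14 and at most 297 CPM elsewhere. These 2 libraries are those with high lymphoid and low adipocyte markers, and the cells that gave the Mfge8 reads were not tested. Tf, the transferrin gene, was at 304 ± 65.0 CPM (SD, n = 6) with HFB and 311 ± 65.7 CPM (SD, n = 6) with CTL. Glycam1, named after its values were seen, had 1019 CPM in HFB 6 and 906 CPM in CTL 14 and at most 36.0 CPM elsewhere, and lymph nodes are also known to express it.

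The genes whose log2 CPM was most like that of each milk protein gene were taken by Pearson's r over the 12 libraries, among 9379 other genes. For Lalba they were Tmc4 (r = 0.961), Cldn7 (0.958), Krt19 (0.957), Elf5 (0.947) and Id4 (0.947). Cldn7 encodes a tight junction protein and Krt19 a keratin of simple epithelia, and both belong to the luminal list. For Csn1s1 they were Gata3 (r = 0.896), Col17a1 (0.891), Cdh1 (0.883), Col2a1 (0.864) and Epcam (0.863), of which Cdh1 and Epcam, both cell adhesion genes, belong to the luminal list. For Csn3 they were Ift22 (r = 0.922), Bmp7 (0.884), Etv5 (0.852), Htra1 (0.842) and Tmem250 (0.837). The 3 sets of 5 shared no gene. Elf5, a transcription factor of alveolar cells, ranked 4 for Lalba, 17 for Csn1s1 and 181 for Csn3, whereas Stat5a ranked 3099, 3076 and 4187.

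The neighbours of the casein genes had few counts. Of the 6 other genes between the outer caseins, 3 are in the table: Fdcsp had 0 counts, Odam had 7 counts in all and Dzip1-ps1 had 1. Of 10 flanking genes, 5 on each side, 5 are in the table. Smr3a and Cabs1, on the side of Csn3, were listed at 0. Sult1e1, Sult1d1 and Sult1b1, sulfotransferase genes on the side of Csn1s1, had at most 10, 15 and 2 counts in a library. Csn1s1 had 2919 counts in all, and Csn2, the casein nearest to it in gene order, had 0.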

How the data were processed

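The authors deposited raw counts of reads per Entrez gene for 12 whole mammary glands, 1 column per library, without normalization. The submitters' processing notes name bcl2fastq, CASAVA 1.8, TopHat, DESeq and the build rn4, with no role or order. The counting program, annotation and use of strand are not given in the sources used here. The RefSeq GRCr8 gene table gave symbols for 16351 of the 16511 identifiers. Counts were analysed with edgeR 4.0.16 in R 4.3.3 (TMM, filterByExpr, quasi-likelihood test, Benjamini-Hochberg over all genes tested), and milk protein and prolactin pathway genes that failed the filter were read from a fit without it. Standard errors and 95% intervals of fold changes were derived from the quasi-likelihood F and its degrees of freedom, an approximation. Scores were means of log2 CPM (prior count 2) over all genes of a list with counts, and relations used the milk protein genes with a median of at least 10 counts per library, in Python 3.11.15 with scipy 1.17.1. Scores were compared by exact permutation and relations by 100000 resamples. No pair of libraries of 1 diet agreed within sampling noise (chi-square per degree of freedom at least 6.69 over 30 pairs). Since each library is a separate gland, this shows only that glands differ by more than counting error. The edgeR function was tested on simulated data. Alternatives were DESeq2 1.42.0, limma 3.58.1 (voom), other size factors, other filters, luminal or lymphoid covariates, another prior count, Spearman's rho for like genes, and leaving out libraries.

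The genes named were all milk protein genes, all genes of the prolactin list, the 3 genes of each other list with the highest mean CPM, any list gene with an unadjusted p under 0.05, the 5 most alike genes of each tested milk protein gene, and the flanking genes of the casein cluster. Glycam1, the other genes between the caseins, and markers absent from the table or listed at 0 were named outside this rule. So were Btn1a1, Muc15, Muc1, Pigr and Atp2b2, which were named after their values were seen. The milk protein genes and the lists were chosen with earlier results of these data known. The second promoter motif, the reads of Csn1s1 per Lalba read, relations and scores without HFB 6 and CTL 14, relations within a diet, the naming of Glycam1, and the prolactin pathway genes without the filter or without HFB 6 and CTL 14 were added after the data had been examined.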

Additional observations from a re-analysis of the deposited data

Results flagged for a closer look

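For 26 sets of 6 glands of 1 diet, the distance of the most extreme gland from its neighbour was divided by the whole spread of the set. In 8 of these sets the quotient was above Dixon's 95% critical value, where chance gives about 1.3 if values are normally distributed. The sets are not independent, since they hold the same libraries, and HFB 6 and CTL 14 recur below. Wap in HFB 6 was at 2.84 log2 CPM, and the neighbouring HFB value was 0.26. Only 3 of the 6 HFB libraries had any Wap counts, so the critical value for normal values is a poor guide there. The adipocyte score was 9.75 in HFB 6 with a neighbour at 11.03, and 9.64 in CTL 14 with a neighbour at 11.06. The lymphoid score was 6.77 in CTL 14 with a neighbour at 2.38. The basal score was 2.33 in HFB 1 with a neighbour at 3.41, and 2.51 in CTL 9 with a neighbour at 3.62. Total counts were 2320267 in HFB 1 with a neighbour at 2629159, and 2944680 in CTL 7 with a neighbour at 2570080.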

How the results depend on the processing

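No paired test was run, since the labels give no pairing of glands between the diets. No alternative called a gene at an adjusted p under 0.05. Csn1s1 stayed lower with HFB, with an unadjusted p under 0.05, in all 21 alternatives, from -1.41 to -0.72 in log2 fold change. At an unadjusted p under 0.05, 220 genes were called, against 613 with limma voom (269 higher and 344 lower, against 122 and 98), 651 with the luminal score, 362 with the lymphoid score and 430 without HFB 6 and CTL 14. Leaving out a library gave from 135 without HFB 5 to 587 without CTL 14, with 380 without HFB 1, 389 without HFB 4, 141 without CTL 7, 141 without CTL 10 and 137 without CTL 11.

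With the luminal score as a covariate Csn3 was at 0.10, Lalba at 0.14, Csn1s2b at 0.70 and Wap at 1.07, and with the lymphoid score Csn3 was at 0.17 and Wap at -0.69. Lalba was at -0.88 and Wap at -1.07 with limma voom and -1.65 without HFB 6 and CTL 14. Leaving out a library gave Csn3 from -0.71 without HFB 5 to 0.50 without CTL 7, Csn1s2b from -0.10 without CTL 8 to 0.78 without CTL 14 and Wap from -2.40 without HFB 6 to 0.97 without CTL 14. Csn3 was lower with limma voom, at -1.76 (unadjusted p = 0.0484, adjusted p = 0.762). It has no value with at least 10 counts required in every library.

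Without HFB 6 and CTL 14, added after the data were examined, r was 0.76 for Csn1s1 with Csn3, 0.92 for Csn3 with Lalba and 0.91 for Csn3 with the luminal score, each now past the adjusted threshold, and for Lalba 0.013 with the adipocyte and -0.66 with the lymphoid score, both of the opposite sign to the values over 12 libraries, -0.47 and 0.070. With a prior count of 0.5, r was 0.70 for Csn1s1 with the basal score and 0.72 for Csn3 with the luminal score, both past the threshold, and -0.029 for Lalba with the skin score. Leaving out a library gave r from 0.22 to 0.74 (without CTL 14, past the threshold) for Csn1s1 with Csn3, 0.67 (without HFB 1, no longer past the threshold) to 0.85 for Csn1s1 with Lalba, and 0.38 to 0.91 for Csn3 with Lalba (past the threshold at 0.70 without CTL 8 and 0.91 without CTL 14). With the luminal score it gave 0.74 (without HFB 1, no longer past the threshold) to 0.89 for Csn1s1 and 0.52 to 0.91 for Csn3 (past it at 0.72 without CTL 8 and 0.91 without CTL 14). With the basal score it gave 0.50 to 0.75 for Csn1s1 (past it at 0.73 without HFB 2, 0.75 without CTL 8 and 0.70 without CTL 14), 0.35 to 0.72 (without CTL 14, past it) for Csn3 and 0.35 to 0.79 (without CTL 8, past it) for Lalba. With the adipocyte score it gave -0.40 to 0.031 for Csn1s1 (-0.26 with all libraries), -0.16 to 0.34 for Csn3 and -0.59 to -0.29 for Lalba. With the lymphoid score it gave -0.48 to 0.027 for Csn1s1 (-0.14 with all libraries), -0.66 to -0.31 for Csn3 and -0.21 to 0.36 for Lalba. With the skeletal muscle score it gave -0.22 to 0.22 for Csn1s1, -0.063 to 0.36 for Csn3 and -0.10 to 0.39 for Lalba. With the skin score it gave -0.18 to 0.23 for Csn1s1, 0.185 to 0.486 for Csn3 and -0.29 to 0.21 for Lalba.

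For score differences between diets it gave -0.27 to 0.23 for adipocyte, -0.087 to 1.59 for lymphoid and -0.059 to 0.98 for skeletal muscle. It was -0.34 without HFB 1 to -0.79 without HFB 5 for luminal, -0.022 without HFB 1 to -0.48 without CTL 9 for basal, and -0.36 without HFB 3 to -0.091 without CTL 8 for skin. By Spearman's rho, 3, 2 and 3 of the 5 most alike genes of Csn1s1, Csn3 and Lalba were kept. The cause of these changes was not tested.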
